A study of Mus musculus with 16 samples.

Results

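Glucose breakdown and the response to low oxygen share a set of genes, and 33 of these were followed through 4 treatments of a transplanted mouse pancreatic tumor. The set holds glucose and lactate transporters, the enzymes of glycolysis, kinases that steer glycolytic flux, the oxygen sensors and further targets of hypoxia-inducible factors. A member was measured where a probe set of the array was annotated to that gene alone, and the probe set with the highest mean over the 16 arrays stood for the gene. This held for 30 of the 33 members, out of 18193 genes measured in the same way. No probe set of Gpi1 or Eno1 is listed for that gene alone, and Gapdh is represented only by 3 array control probe sets, so these 3 members were not tested.

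Glycolysis turns glucose into pyruvate, and cells short of oxygen convert the pyruvate to lactate and export it. Hypoxia-inducible factors are transcription factors whose alpha subunits are marked for destruction by oxygen-dependent prolyl hydroxylases, so that they accumulate when oxygen is scarce and switch on most genes of this set. Pancreatic ductal tumors are known for poor blood supply, and activated macrophages and neutrophils also use many of these genes.

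The tumors came from PDA30364, a single cell line derived from a pancreatic tumor of a genetically engineered mouse, and they grew under the skin of C57BL/6-Ly5.1 mice aged 6 to 12 weeks, not in the pancreas. Control mice received vehicle plus control IgG, anti-CD40 mice vehicle plus the agonist antibody (CD40 mIgG1), GEM mice gemcitabine (a nucleoside drug that blocks DNA synthesis) plus control IgG, and GEM/anti-CD40 mice both agents. CD40 is a receptor on antigen-presenting cells, and its agonist antibody activates dendritic cells and macrophages. GEM was dosed at 120 mg/kg, first on treatment day 1 and then on days 5 and 12. The antibody was given on days 3 and 4 and again on days 6 and 14. Tumors were collected on day 22 or 23 after inoculation, and the paper's methods state that RNA was isolated from tumor pieces. By the labels there was 1 array per tumor and there were 4 tumors per group. Each value below is a log2 intensity of RNA from unsorted tumor tissue, and a difference is a log2 change between group means.

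Tumor epithelium was evident on all arrays: the mean log2 intensity of 6 keratin and adhesion genes lay between 12.33 and 13.01. Genes of neighbouring tissues set single arrays apart. Skeletal muscle genes averaged 12.15 in GEM/anti-CD40 replicate 4 and 4.44 to 7.73 in the other 15 arrays, and skin keratinocyte genes averaged 9.12 in control replicate 2 and 7.38 in anti-CD40 replicate 2 against 4.72 to 5.39 elsewhere. Adipocyte genes averaged 5.74 in GEM replicate 3. One animal number appears in 2 titles, those of GEM replicates 3 and 4, which may therefore come from 1 mouse although the labels give 4 mice per group.

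The clearest contrast for the set lay between the 2 groups that received GEM. In GEM/anti-CD40 tumors 29 of the 30 members had a higher mean than in GEM tumors, where 43.2% of all genes did, and the median log2 change was 0.29 against -0.02 over all genes. With an unadjusted p under 0.05 by limma, 19 members were higher, against a background of 6.67% of all genes, and 0 were lower, against 6.10%. The groups did not overlap, with every GEM/anti-CD40 tumor above every GEM tumor, for 11 members, against 3.69% of all genes: Slc2a1, Slc16a3, Hk1, Hk2, Pfkp, Aldoa, Tpi1, Pgam1, Pfkfb3, Adm and Bnip3. None of the 30 passed an adjusted p of 0.05, and neither did any other gene (0%). These 11 cover glucose uptake, lactate export, early steps of glycolysis, a later step (Pgam1), a kinase that steers flux (Pfkfb3) and hypoxia targets outside glycolysis. In bulk tumor RNA, more cells of a type and more RNA per cell cannot be told apart.

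**Figure D1:**
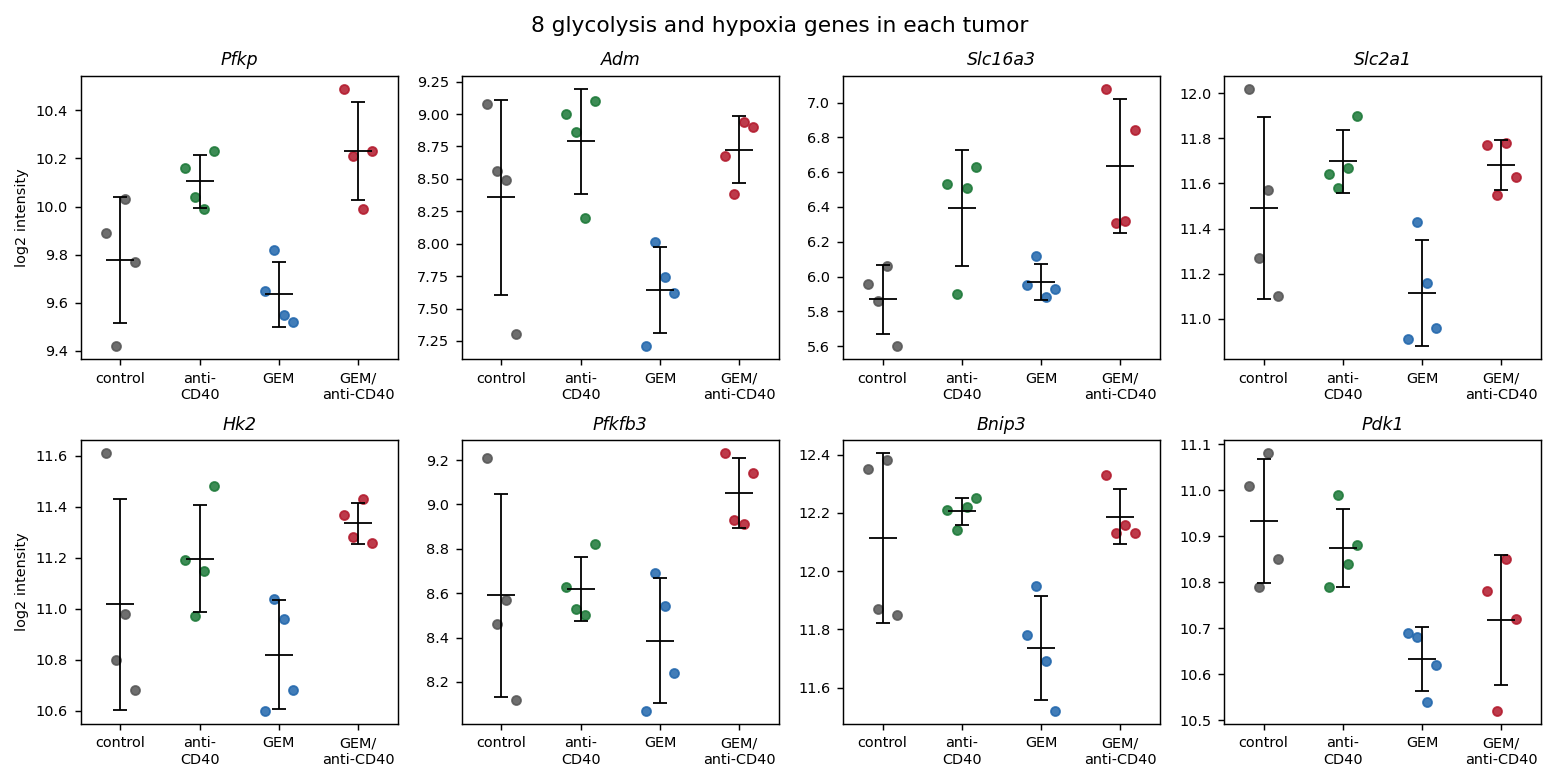
Log2 intensity (y axis) of 8 members in each tumor by treatment group (x axis); points are tumors and bars are the mean ± SD of 4. For every gene shown except Pdk1, the 4 GEM/anti-CD40 tumors lie above all 4 GEM tumors. Control tumors have the largest SD for every gene shown except Slc16a3 and Pdk1.

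Adm, which encodes the vasodilator peptide adrenomedullin, showed the widest gap between those groups. Its log2 intensities were 7.21, 8.01, 7.74 and 7.62 in GEM tumors and 8.68, 8.38, 8.94 and 8.90 in GEM/anti-CD40 tumors. Anti-CD40 tumors held 9.0, 8.86, 8.20 and 9.10, and controls 9.08, 8.56, 8.49 and 7.30. The GEM tumors thus stood low, beside 1 of the 4 controls, while the other 3 controls lay among the antibody-treated tumors. The GEM/anti-CD40 mean was 1.08 ± 0.18 (SE) above the GEM mean on the log2 scale, a 2.11-fold difference that did not pass the adjusted threshold (limma, n = 4 per group, adjusted p = 0.197). A second, dimmer Adm probe set gave 1.10 for the same difference.

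Pfkp, the platelet isoform of phosphofructokinase, the enzyme that commits sugar to glycolysis, was the only member to pass an adjusted threshold in any comparison. It was measured at 9.89, 9.42, 10.03 and 9.77 in control tumors and at 10.16, 10.04, 9.99 and 10.23 in anti-CD40 tumors. GEM tumors held 9.65, 9.82, 9.55 and 9.52, and GEM/anti-CD40 tumors 10.49, 10.21, 9.99 and 10.23. Without GEM 1 control reached into the anti-CD40 range, and with GEM the groups were separate. Taking both backgrounds together in a fit of all 16 arrays, Pfkp rose with anti-CD40 by 0.46 ± 0.09 (SE), or 1.38-fold (limma, adjusted p = 0.0434; background 0.599% of all genes). The call was close to the threshold: adjusted p was 0.0859 without the 3 arrays that carry skin or muscle genes and 0.0912 with GEM replicates 3 and 4 averaged, and leaving out any of 12 of the 16 arrays also ended it. The log2 change was 0.60 ± 0.11 between GEM/anti-CD40 and GEM tumors (limma, adjusted p = 0.197) and 0.33 between anti-CD40 and control tumors. A second Pfkp probe set gave 0.48 for the effect over both backgrounds, and the dimmest of the 3 gave 0.17.

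Over both backgrounds the anti-CD40 effect was above 0 for 29 of the 30 members, against 41.3% of all genes, with a median of 0.19 against -0.02. At an unadjusted p under 0.05, 16 members were higher, against 7.53% of all genes, and none lower. That count was 10 when the 3 arrays with skin or muscle genes were left out. The share over all genes was not computed for that smaller fit, so the drop cannot be set against it.

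Of the 3 transporters, Slc16a3 and Slc2a1 were among these 16 and Slc2a3 was not. Slc16a3 (MCT4), which exports lactate, was measured at 5.96, 5.86, 6.06 and 5.60 in control tumors and 5.95, 6.12, 5.88 and 5.93 in GEM tumors. It was at 6.53, 5.90, 6.51 and 6.63 in anti-CD40 tumors and at 7.08, 6.31, 6.32 and 6.84 in GEM/anti-CD40 tumors. All but 1 of the 8 antibody-treated tumors thus exceeded all 8 others, the exception being anti-CD40 replicate 2. Its change over both backgrounds was 0.60 (limma, adjusted p = 0.0562). The probe set is dim, with a mean of 6.22 where array medians lay between 5.60 and 5.66.

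Slc2a1 (GLUT1), the main glucose importer of most tumor cells, was at 10.91, 11.43, 11.16 and 10.96 in GEM tumors and at 11.77, 11.55, 11.78 and 11.63 in GEM/anti-CD40 tumors. Controls spanned both, from 11.10 to 12.02, and anti-CD40 tumors lay between 11.58 and 11.90. The difference between the GEM groups was 0.57 on the log2 scale, and the 2 other Slc2a1 probe sets gave 0.62 and 0.70. Slc2a3 (GLUT3), a second glucose importer, had a log2 change of 0.48 between the same groups with overlap. Its probe sets differed, since those near a log2 intensity of 4 gave 0.04 and -0.07.

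Among the enzymes from hexokinase to triosephosphate isomerase, all 8 measured members had a higher mean in GEM/anti-CD40 than in GEM tumors, against 43.2% of all genes. Of these 8, 5 were higher at an unadjusted p under 0.05, against 6.67% of all genes. Hk2, the inducible hexokinase that traps glucose in the cell, was at 10.60, 11.04, 10.96 and 10.68 in GEM tumors and at 11.37, 11.28, 11.43 and 11.26 in GEM/anti-CD40 tumors, a log2 difference of 0.52 without overlap. Pfkp, given above, differed by 0.60 and Pfkm by 0.34. Hk1, the constitutive hexokinase, differed by 0.23, the liver-type phosphofructokinase Pfkl by 0.20, the aldolase Aldoa by 0.34, its brain-type isozyme Aldoc by 0.12 and the triosephosphate isomerase Tpi1 by 0.12. These abundant enzymes varied little, so that Hk1 and Tpi1 separated the groups although they differed by less than 0.25.

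Pfkm, the muscle isoform of phosphofructokinase, turned on 1 array. It was measured at 8.56, 8.72, 8.74 and 10.54 in GEM/anti-CD40 tumors, and the last value came from the array with skeletal muscle genes at 12.15. The log2 difference from GEM tumors was 0.34 with that array and -0.12 without it, and the difference from control 0.32 and -0.14. In anti-CD40 tumors Pfkm was lower than in every control, at 8.57 to 8.73 against 8.77 to 8.88. All 8 skeletal muscle markers were also lower in anti-CD40 than in control tumors, with a median log2 change of -1.11. At an unadjusted p under 0.05 by limma 6 of 8 were lower, against 3.74% of all genes. Tumor means over the 8 markers were 4.44 to 6.02 with anti-CD40 and 5.04 to 7.37 in controls. The part of these markers in the Pfkm value was not tested. Aldoa, which muscle also uses heavily, read 13.17 on the same array and 12.66 to 12.82 in the other GEM/anti-CD40 tumors, and its difference from GEM tumors was 0.22 without it, still with no overlap.

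**Figure D2:**
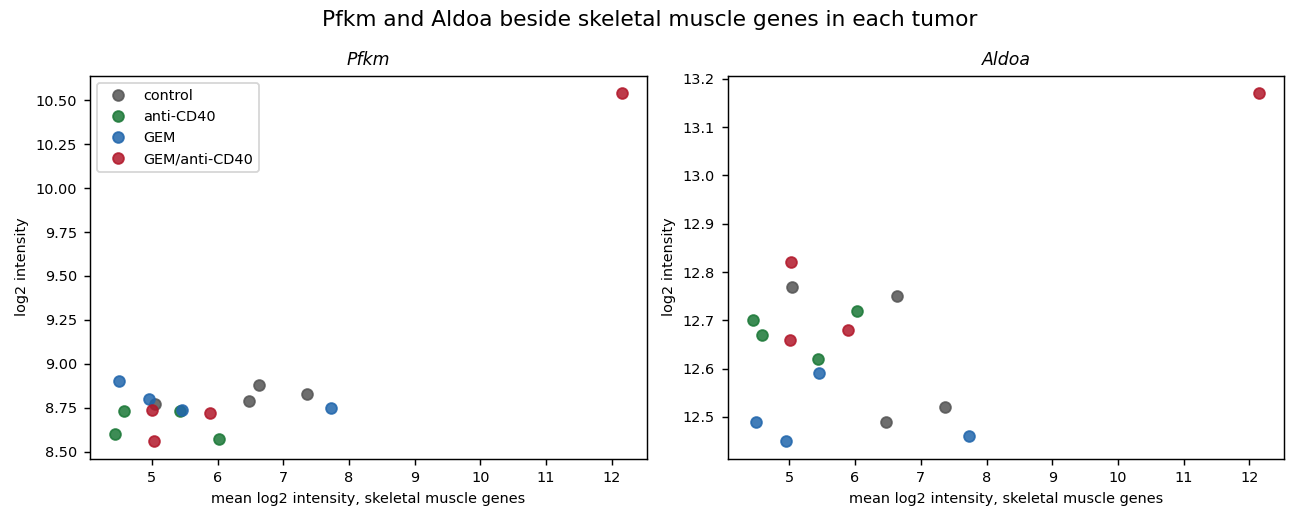
Log2 intensity of Pfkm (left) and Aldoa (right) on the y axes against the mean log2 intensity of 8 skeletal muscle genes on the x axes, 1 point per tumor, colored by treatment group. GEM/anti-CD40 replicate 4, at 12.15 on the x axis, holds the highest value of both genes (10.54 and 13.17).

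The later steps of glycolysis differed little. Pgk1 (phosphoglycerate kinase) differed by 0.08 between GEM/anti-CD40 and GEM tumors, Pgam1 (phosphoglycerate mutase) by 0.17, Pkm (pyruvate kinase) by 0.12 and Ldha (lactate dehydrogenase A) by 0.10. All 5 measured members of this stretch were above 0, against 43.2% of all genes. Only 1, Pgam1, was higher at an unadjusted p under 0.05, against 6.67% of all genes. Pkm was higher in every anti-CD40 tumor (12.85 to 12.91) and every GEM/anti-CD40 tumor (12.90 to 12.93) than in any control (12.74 to 12.84). Eno2, the neuronal enolase, had a mean of 4.40, below the array medians, and a difference of 0.12. On the middle Gapdh control probe set, group means were 13.67 in control, 13.76 in anti-CD40, 13.62 in GEM and 13.75 in GEM/anti-CD40 tumors, given as a description only.

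The kinases that set flux differed from one another. Pfkfb3 makes fructose-2,6-bisphosphate, the strongest activator of phosphofructokinase. It was at 9.21, 8.46, 8.57 and 8.12 in control tumors and at 8.63, 8.53, 8.50 and 8.82 in anti-CD40 tumors. GEM tumors held 8.07, 8.69, 8.54 and 8.24, and GEM/anti-CD40 tumors 9.23, 8.93, 8.91 and 9.14. These values are from the brighter of 2 Pfkfb3 probe sets. On it the combination was above both single agents in every tumor, while the control with 9.21 lay within its range. Pfkfb4, a related isoform, differed by -0.03 between the GEM groups, and Pdk1, a kinase that inhibits pyruvate dehydrogenase, by 0.09.

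In the oxygen-sensing group, Hif1a encodes the alpha subunit of hypoxia-inducible factor 1. Its log2 intensities were 11.79, 11.53, 11.51 and 11.66 in controls, 11.84, 11.74, 12.50 and 12.06 in anti-CD40 tumors, 11.61, 11.87, 11.78 and 11.78 in GEM tumors and 12.16, 11.86, 11.95 and 12.00 in GEM/anti-CD40 tumors. Every GEM/anti-CD40 tumor exceeded every control, and 1 GEM tumor lay just within the combination's range. The prolyl hydroxylases Egln1 and Egln3, which mark the factor for destruction and are themselves its targets, differed by 0.17 and 0.31 between the GEM groups, which overlapped for both genes.

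Of the 8 hypoxia targets outside glycolysis, all were above 0 between GEM/anti-CD40 and GEM tumors, against 43.2% of all genes. Of these 8, 7 were higher at an unadjusted p under 0.05, against 6.67% of all genes. Bnip3, which promotes the removal of mitochondria, was at 11.78, 11.95, 11.69 and 11.52 in GEM tumors and at 12.33, 12.13, 12.16 and 12.13 in GEM/anti-CD40 tumors, a difference of 0.45 without overlap. Ankrd37, an ankyrin-repeat gene, differed by 0.54, the angiogenic factor Vegfa by 0.33, the stress gene Ndrg1 by 0.30, and P4ha1 and P4ha2, catalytic subunits of collagen prolyl 4-hydroxylase, by 0.26 and 0.28. Car9, a carbonic anhydrase that disposes of acid, differed by 0.37 with an unadjusted p above 0.05. Its values in GEM tumors ranged from 10.24 to 11.17 and in GEM/anti-CD40 tumors from 11.03 to 11.38.

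**Figure D3:**
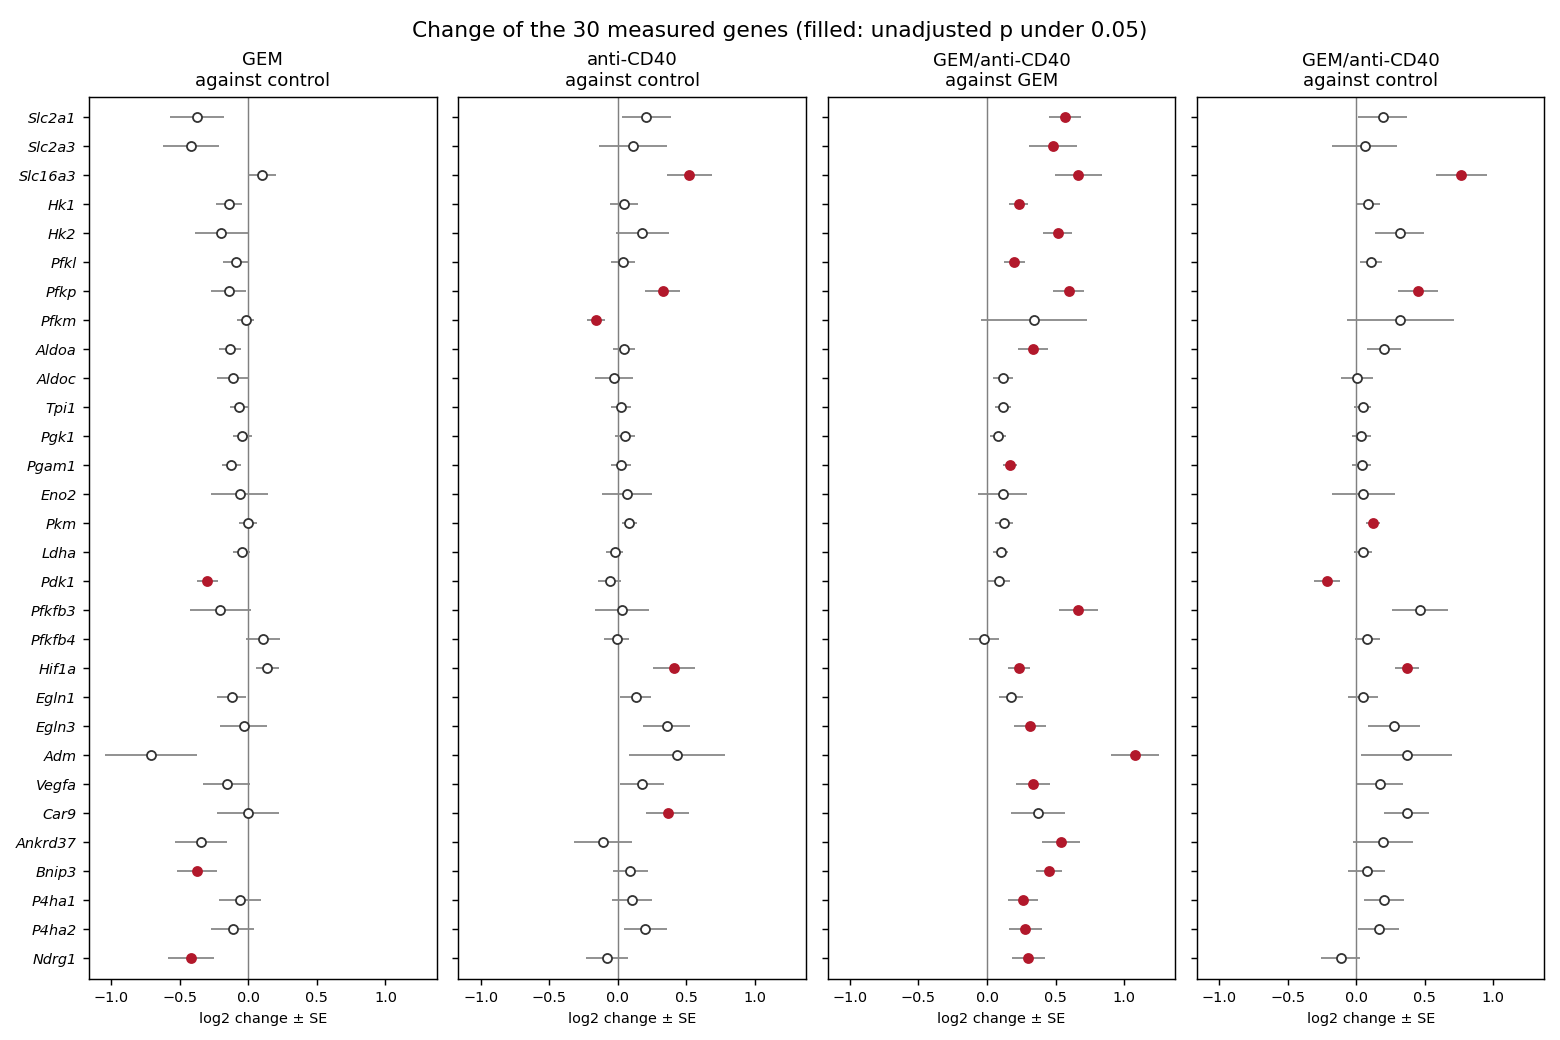
Log2 change ± SE (x axis) of the 30 measured members (y axis) in 4 comparisons; filled points have an unadjusted p under 0.05 and open points do not. In GEM/anti-CD40 against GEM 29 members lie above 0 and 19 points are filled; in GEM against control 27 lie below 0 and 3 are filled.

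Promoters of the set were examined for the core of the element that hypoxia-inducible factors bind, written as ACGTG or GCGTG and searched on both strands in the 250 bases before each annotated start (RefSeq, GRCm38.p6). Windows were matched for 31 of the 33 members, and 28 of the 31 (90.3%) held the core at least once, against 41.5% of all genes in the table. A gene can have several windows, and counted by window 36 of 45 (80%) held the core, against 38.6% of all windows. The windows of the members were also richer in CpG, with a median of 14 CpG against 6. Among windows with 8 to 21 CpG, 80.8% of the members' windows and 58% of all windows held the core. The 3 members with no core in a window were Gpi1, Tpi1 and Eno2, and Tpi1 is among the genes that were separate between the GEM groups. The 4 windows below were chosen among members that hold the core, as those with the smallest p-values whose window does not overlap the gene's annotated span, and show where the core lies before the start; capitals mark each core or its reverse complement (CACGT or CACGC), and CACGTG holds 2 overlapping matches. Adm lies at chr7:110627407-110627656 on the plus strand, Hk2 at chr6:82774455-82774704 on the minus strand, Slc2a1 at chr4:119108495-119108744 on the plus strand and Bnip3 at chr7:138909507-138909756 on the minus strand.
Adm: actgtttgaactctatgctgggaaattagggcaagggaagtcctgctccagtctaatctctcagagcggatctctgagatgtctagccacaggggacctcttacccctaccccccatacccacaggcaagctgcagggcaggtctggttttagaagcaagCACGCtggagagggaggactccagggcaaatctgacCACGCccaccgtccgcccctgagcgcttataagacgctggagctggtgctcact
Hk2: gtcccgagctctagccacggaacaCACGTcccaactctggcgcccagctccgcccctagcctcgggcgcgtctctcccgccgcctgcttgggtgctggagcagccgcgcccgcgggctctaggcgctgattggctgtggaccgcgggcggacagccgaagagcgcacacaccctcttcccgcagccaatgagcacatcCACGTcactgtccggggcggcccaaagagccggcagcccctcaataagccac
Slc2a1: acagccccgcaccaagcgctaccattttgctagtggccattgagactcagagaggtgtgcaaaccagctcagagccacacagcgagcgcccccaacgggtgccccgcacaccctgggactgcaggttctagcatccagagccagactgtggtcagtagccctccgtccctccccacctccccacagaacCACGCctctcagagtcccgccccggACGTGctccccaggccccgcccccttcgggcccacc
Bnip3: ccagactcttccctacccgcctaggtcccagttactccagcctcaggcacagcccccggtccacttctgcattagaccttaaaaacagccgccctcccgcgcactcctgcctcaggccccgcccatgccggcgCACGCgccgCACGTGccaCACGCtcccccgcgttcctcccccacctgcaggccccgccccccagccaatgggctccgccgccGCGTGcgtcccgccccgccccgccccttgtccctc

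Adm, Hk2 and Slc2a1 each held 2 matches and Bnip3 held 5. A window of Pfkp held 3, of Pfkfb3 3 and of Slc16a3 2, and these were not printed because they overlap the annotated span of the gene. A match describes letters only, and no factor binding was measured in these tumors.

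Markers of other cells moved alongside the set between GEM and GEM/anti-CD40 tumors. All 6 macrophage markers were higher, where 43.2% of all genes were. Their median log2 change was 0.76, with tumor means of 8.43 to 9.03 in the GEM group and 8.89 to 9.94 in the combination. All 5 measured neutrophil markers were higher, with a median of 0.98 and tumor means of 7.39 to 8.26 against 8.25 to 8.90, and all 5 endothelial markers were higher with a median of 0.52. Fibroblast markers had a median of 0.14 and tumor epithelium markers one of -0.04. Over both backgrounds 2 of the 6 macrophage markers were called, both higher with anti-CD40, against 0.599% of all genes called. They were Itgam (CD11b), at 0.96 (limma, adjusted p = 0.0398), and Lyz2 (lysozyme), at 0.76 (limma, adjusted p = 0.0434). The paper also used CD11b to gate granulocytic cells, so Itgam is not particular to macrophages. In the effect over both backgrounds all 6 macrophage markers were above 0 (41.3% of all genes), and 3 were higher at an unadjusted p under 0.05 (7.53%). With anti-CD40 alone 5 of the 6 had a higher mean than in controls, against 43.6% of all genes. The other, Adgre1, had a lower mean, at 7.14 to 7.78 against 7.10 to 7.86. The part of these cell markers in the result for the glycolysis and hypoxia genes was not tested.

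Between GEM and control tumors most differences had the opposite sign. In GEM tumors 27 of the 30 members had a lower mean than in controls and 3 a higher one, where 48.6% of all genes were higher, and the median log2 change was -0.12 against 0.00. With each array left out in turn that median lay between -0.19 (without control replicate 2) and -0.05 (without control replicate 3), and it was -0.06 without control replicate 1 or GEM replicate 4. At an unadjusted p under 0.05 limma found 3 members lower, Pdk1, Bnip3 and Ndrg1, against 2.97% of all genes, and 0 higher, against 3.34%. None passed the adjusted threshold, as for all genes (0%). Pdk1 was the only member whose groups did not overlap (background 1.84%). It was at 11.01, 10.79, 11.08 and 10.85 in controls and at 10.69, 10.68, 10.54 and 10.62 in GEM tumors, a log2 change of -0.30 ± 0.08 (limma, adjusted p = 0.757). Bnip3 was at 12.35, 11.87, 12.38 and 11.85 in controls, which overlapped the GEM tumors, with a log2 change of -0.38 ± 0.15 (limma, adjusted p = 0.852). Other probe sets of Pdk1 gave log2 changes between -0.31 and -0.04. The widest mean differences were those of Adm at -0.71, Slc2a3 at -0.42 and Ndrg1 at -0.42, and the members above 0 were Slc16a3, Pfkfb4 and Hif1a. The 4 GEM arrays also enter GEM/anti-CD40 against GEM, so the values of these comparisons stand side by side and are not independent of each other.

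Anti-CD40 alone gave smaller differences. Of the 30 members 23 were above 0 against 43.6% of all genes, with a median of 0.08 against -0.02. That median was 0.16 without control replicate 1, 0.02 without control replicate 2 and 0.04 without control replicate 4. None passed the adjusted threshold, nor did any gene (0%), and at an unadjusted p under 0.05 limma found 4 higher (Slc16a3, Pfkp, Hif1a and Car9), against 3.52%, and 1 lower (Pfkm), against 3.74%. Pkm was higher without overlap (background 1.66%) and Pfkm lower without overlap (1.75%). Slc16a3 had a log2 change of 0.52 ± 0.16 and Hif1a one of 0.41 ± 0.15 (limma, both adjusted p = 0.807). The 2 other bright probe sets of Hif1a gave 0.67 and 0.71.

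Against control, the combination was above 0 for 28 of 30 members (44.6% of all genes), with a median of 0.14 against -0.02, which was 0.23 without control replicate 1 and 0.07 without control replicate 4. No member passed the adjusted threshold, against 0.0275% of all genes, and at an unadjusted p under 0.05 limma found 4 members higher (Slc16a3, Hif1a, Pfkp and Pkm), against 5.86%, and 1 lower (Pdk1), against 5.35%. Slc16a3, Hif1a and Pkm were higher without overlap (background 3.00%). Slc16a3 had a log2 change of 0.77 ± 0.18 and Hif1a one of 0.37 ± 0.09 (limma, both adjusted p = 0.407). The count against control was smaller than that against GEM, and so was the median, at 0.14 against 0.29. Control tumors also varied more, and the part of that spread in the smaller count was not tested. The mean over the 30 members ranged from 9.97 to 10.41 in control tumors and from 10.25 to 10.39 with anti-CD40. It ranged from 9.93 to 10.16 with GEM and from 10.27 to 10.41 with the combination. The 8 antibody-treated tumors all lay above the 4 GEM tumors on that mean.

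**Figure D4:**
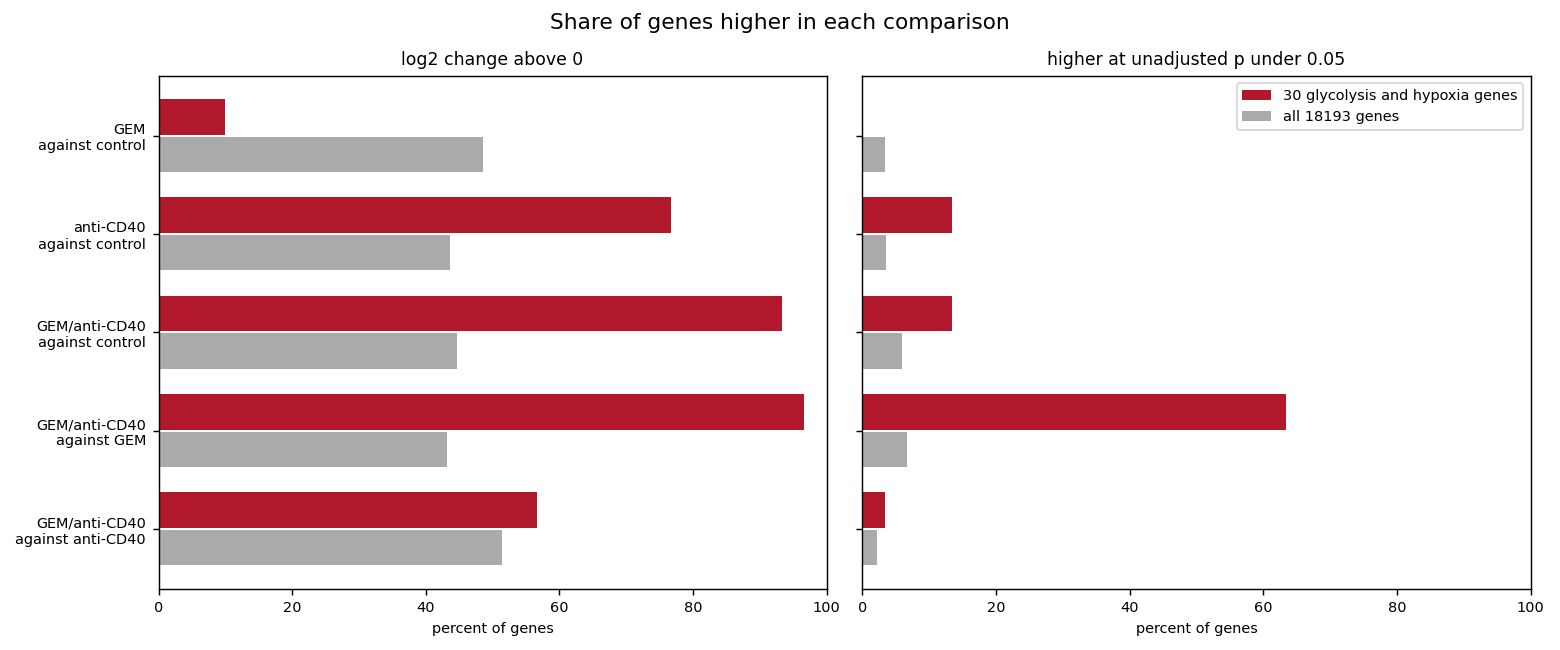
Percent of genes (x axis) with a log2 change above 0 (left) and higher at an unadjusted p under 0.05 (right) in 5 comparisons (y axis), for the 30 measured members and for all 18193 genes. The members stand furthest from all genes in GEM/anti-CD40 against GEM, with 29 of 30 above 0 and 19 of 30 higher, and closest in GEM/anti-CD40 against anti-CD40, with 17 above 0 and 1 higher.

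GEM/anti-CD40 and anti-CD40 tumors had similar means for most members. Of the 30, 17 were above 0 (51.4% of all genes), the median was 0.02 against 0.01, none passed the adjusted threshold (0%), and limma found 1 member, Pfkfb3, higher at an unadjusted p under 0.05 (2.19%). Pfkfb3 was also higher without overlap (background 1.31%), with a log2 change of 0.43 ± 0.10 (limma, adjusted p = 0.937). Under the alternatives, which include averaging a gene's probe sets, that change ranged from 0.245 to 0.50. Pdk1 had a change of -0.16 ± 0.08 (limma, adjusted p = 0.937). For Pfkp the difference was 0.13 with a 95% interval from -0.12 to 0.37, and for Adm -0.07 with an interval from -0.52 to 0.39, so differences within these bounds remain possible.

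Over both backgrounds the GEM effect was above 0 for 9 members and below 0 for 21 (51.8% of all genes were above 0), with a median of -0.03 against 0.00. No member passed the adjusted threshold (0.00550% of all genes did), and 3, again Pdk1, Bnip3 and Ndrg1, were lower at an unadjusted p under 0.05 by limma (2.43%). Pdk1 had a log2 change of -0.23 ± 0.06 (limma, adjusted p = 0.846) and Bnip3 one of -0.20 ± 0.08 (limma, adjusted p = 0.900).

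Whether anti-CD40 changed the set by a different amount with GEM than without was tested as an interaction. The interaction was above 0 for 27 of the 30 members (51.9% of all genes), with a median of 0.15 against 0.01, and none passed the adjusted threshold (0%). At an unadjusted p under 0.05 limma found 2 members, Pfkfb3 and Ankrd37, above 0 (2.81%). Pfkfb3 had an interaction of 0.64 ± 0.26 on the log2 scale and Ankrd37 of 0.65 ± 0.27 (limma, both adjusted p = 0.890). Ankrd37 was at 8.26, 8.26, 8.55 and 8.31 in GEM tumors, at 8.52, 8.96, 9.22 and 8.85 in GEM/anti-CD40 tumors, from 8.09 to 9.08 in controls and from 8.21 to 8.80 in anti-CD40 tumors. The larger count of members between the GEM groups than between anti-CD40 and control was therefore not shown to be a difference between backgrounds for any member. A test for any difference among the 4 groups called 0 members (0.0605% of all genes) and had an unadjusted p under 0.05 in 11 by limma (11.0%).

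Neighbouring pathways were read from lists that hold no member of the set. Of 27 measured further hypoxia genes, 24 were above 0 between GEM/anti-CD40 and GEM tumors, against 43.2% of all genes. The median of the 27 was 0.14 against -0.02 over all genes. With an unadjusted p under 0.05 by limma 11 were higher, against 6.67% of all genes, and 0 lower, against 6.10%. Angptl4, a lipoprotein lipase inhibitor induced by low oxygen, rose with anti-CD40 over both backgrounds by 0.65 ± 0.10 (limma, adjusted p = 0.0179). It was the only call in this list, against 0.599% of all genes. Plin2, a lipid droplet coat protein, had a change of 0.22 (limma, adjusted p = 0.0616). Of 20 further glycolysis genes, limma found 1 higher between the GEM groups at an unadjusted p under 0.05, against 6.67% of all genes, and the median was 0.08. Their mean was 9.20 in GEM/anti-CD40 replicate 4, where muscle genes were high, and 8.57 to 8.63 in the other tumors of that group. That gene, Hk3, a hexokinase of myeloid cells, had a log2 change of 1.00 (limma, adjusted p = 0.286) with no overlap between the groups.

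Between the GEM groups, genes of other carbon pathways had medians near 0. The 6 measured pentose phosphate genes had a median of -0.02 between GEM/anti-CD40 and GEM tumors, with 0 called by limma (0% of all genes). At an unadjusted p under 0.05 there were 0, where 6.67% of all genes were higher and 6.10% lower. So few genes cannot show a difference from those shares. The 21 measured oxidative phosphorylation genes had a median of 0.00, with 0 called (0%). At an unadjusted p under 0.05, 0 were higher, against 6.67%, and 1 was lower, against 6.10%. That gene, Ndufa4, a cytochrome c oxidase subunit, had a log2 change of -0.19 (limma, adjusted p = 0.335). In anti-CD40 against control tumors 2 of the 21 were above 0, against 43.6% of all genes, with a median of -0.04 against -0.02. For the anti-CD40 effect over both backgrounds 4 of the 21 were above 0, against 41.3%. Their median there was -0.02, as over all genes, and 0 were called (0.599%).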

How the data were processed

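Total RNA from pieces of 16 tumors was hybridised by the authors to Affymetrix mouse genome arrays. The deposited log2 values were made by the authors with RMA, as the submitters' processing notes name it (background correction, quantile normalization and summary per probe set). RMA makes array medians alike and cannot show a change shared by all genes. Precision is limited by how many arrays each group has. Tests covered 45037 of 45101 probe sets, without the 64 array controls. In GEO's platform annotation 34945 had 1 gene symbol, 932 several and 9160 none, and 18193 genes were named from those with 1. Log2 values were compared with limma 3.58.1 in R 4.3.3 (two-sided, Benjamini-Hochberg over all probe sets, called at adjusted p under 0.05): pairs of groups in fits of 8 arrays, and the anti-CD40 effect, GEM effect, interaction and any difference in a fit of all 16. The members and lists were chosen with earlier results of these data known. Full statistics are given to members past the threshold and otherwise to the 2 with the smallest p per comparison, and promoters to at most 4 members with the smallest p that hold the core. The choice of windows outside the annotated span was added after seeing the data. Alternatives covered the variance prior, array weights, scaling, a filter on dim probe sets, the choice of probe set, a replicate block, left-out arrays and averaged GEM replicates. The scripts were tested on simulated data. Isozyme protein sequences were not used here.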

Additional observations from a re-analysis of the deposited data

Results flagged for a closer look

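For each of the 30 members in each of the 4 groups of 4 tumors, the most distant tumor was compared with the rest by Dixon's criterion, the gap to the nearest tumor over the range of the group. Of these 120 groups 7 stood out, where chance gives about 1 in 20, or 6. Pfkm was highest in GEM/anti-CD40 replicate 4, at 10.54 against 8.74 for the next tumor, on the array whose skeletal muscle genes averaged 12.15. P4ha1 was highest on the same array, at 9.75 against 9.50. Bnip3 (12.33 against 12.16) and Pfkfb4 (6.95 against 6.78) were highest in GEM/anti-CD40 replicate 1. Hk1 was lowest in anti-CD40 replicate 3 (10.44 against 10.68), Slc16a3 in anti-CD40 replicate 2 (5.90 against 6.51), on an array with skin keratinocyte genes at 7.38, and Tpi1 in GEM replicate 4 (12.92 against 13.03). The part of the muscle and skin genes in these values was not tested.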

How the results depend on the processing

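Of 775 values computed under alternatives, 734 stayed alike: log2 changes kept their sign and side of the threshold, counts stayed within 1.5 times and medians over the members moved by less than 0.133, the SD between tumors. Medians near 0 turned sign within that limit: the GEM effect over both backgrounds (-0.03) was 0.000625 without control replicate 1, and GEM/anti-CD40 against anti-CD40 (0.02) was -0.00125 with 75th percentile scaling. None of 320 log2 changes of named members reversed. All but 1 of the exceptions concern the anti-CD40 effect over both backgrounds, where 1 member was called. The count was 2 without dim probe sets, with array weights or with a gene's probe sets averaged. It was 0 with scaling to the 75th percentile, GEM replicates 3 and 4 averaged, the 3 arrays with skin or muscle genes left out, or a log2 change of at least 1 required, and 0 to 3 with each array left out in turn. With the replicate number as a block it was 0 (Pfkp adjusted p = 0.0714). Same-numbered samples correlated between -0.27 and 0.27 in their deviations. With so few arrays these values cannot decide whether the numbers mark a shared batch or pairing. Pfkp lost its call in 16 of 26 alternatives, with adjusted p from 0.0163 to 0.106 and a log2 change from 0.37 to 0.50. Leaving out control 2, 3 or 4, anti-CD40 1, 3 or 4, GEM 1, 3 or 4, or the combination's replicate 1, 2 or 4 ended it, as did 75th percentile scaling (0.0508). Members higher at unadjusted p for that effect numbered 16, 10 without the 3 skin or muscle arrays and 12 to 19 with each array left out. Between GEM/anti-CD40 and GEM tumors, members higher at unadjusted p numbered 13 to 22 in all alternatives and 17 without those arrays; members higher without overlap were 11, 18 without GEM replicate 2, and 11 to 18 with each array left out. Members below 0 with GEM against control numbered 20 to 27. The counts followed beyond those called were chosen after seeing the data, and the shares over all genes were not computed under the alternatives. Under the other scalings the median of all genes moved by 0.05 or less. Eno2 was removed by the filter on dim probe sets, and Slc16a3 lies close to it.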
